A study of Mus musculus with 8 samples.

Results

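The genes described here are 9 G protein alpha subunit genes of the Gi/o, Gq and Gs classes. Through these classes heptahelical receptors such as *Mchr1*, the receptor of melanin-concentrating hormone (MCH), act inside a cell. The 9 genes were taken by name as rows of the gene table, 9 of 45706 genes. All 9 were among the 14962 genes that passed the filter on low counts. The Gi/o class holds 5 of them (*Gnai1*, *Gnai2*, *Gnai3*, *Gnao1* and *Gnaz*), the Gq class 2 (*Gnaq* and *Gna11*) and the Gs class 2 (*Gnas* and *Gnal*).

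RNA was sequenced from wild-type (C57/Bl6) mouse hippocampal neurons, cultured from embryonic day 18 and exposed for 4 h either to vehicle, which was water, or to 1 µM MCH peptide, with 4 wells per treatment. Although the sample labels include a tag for Alzheimer's disease, the genotype entry and the methods of the study give wild-type neurons. According to the methods, the wells came from 2 independent cultures with 2 wells of each treatment in each, and which replicate came from which culture is not stated, so a *P* value here measures a spread between wells of few cultures. Library totals ran from 26083936 to 31844861 estimated counts, with a median of 27997746. Wells are named by treatment and replicate number. After the mean of each treatment was subtracted from every gene, the first principal component held 54.4% of the remaining variance. On it, replicates 1 and 2 of both treatments stood apart from replicates 3 and 4. A difference between treatments could not appear on this component, so its size is not compared with that of the split. The summed level of 5 astrocyte markers, *Gfap* and *Slc1a3* among them, was 288 to 389 CPM (counts scaled to a common library size) in replicates 1 and 2 and 1289 to 1453 CPM in replicates 3 and 4, with no overlap for any of the 5. The 5 markers of fibroblasts or vessels summed to 4.43 to 5.29 CPM and 9.87 to 13.4 CPM in the same order, again with no overlap for any of the 5. The 6 neuronal markers, such as *Map2* and *Snap25*, summed to 5362 to 5612 CPM in replicates 1 and 2 and to 4886 to 5074.5 CPM in replicates 3 and 4, and the 3 inhibitory neuron markers to 1855 to 2048.5 and 1634 to 1785 CPM. The defining oligodendrocyte gene *Mog* was at 0 counts and the microglial gene *Tmem119* at 3 counts or fewer in every well.

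An alpha subunit binds a guanine nucleotide and, together with a beta and a gamma subunit, couples a receptor to enzymes and channels. Gi/o subunits lower adenylyl cyclase activity, and the beta and gamma subunits they release open inwardly rectifying potassium channels. Gq subunits activate phospholipase C beta, and Gs subunits stimulate adenylyl cyclase. The MCH receptor is known to couple to Gi/o and, in some cells, to Gq. Whether exposure to the peptide was accompanied by a change in the transcripts of these transducers is the question that the comparison of treatments addresses.

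Which receptors an alpha subunit recognises depends in good part on its carboxyl end, so the last 30 coding bases, stop codon included, are shown for the most abundant coding transcript of each gene, and for *Gnao1* for both of its coding ends. Sequences and positions are those of GENCODE vM21 on GRCm38, 5′ to 3′ on the coding strand, and the capitals mark the fourth codon counted back from the stop. That codon encodes cysteine (TGT or TGC) in *Gnai1*, *Gnai2*, *Gnai3* and *Gnao1*, the residue that pertussis toxin modifies. It is ATC, for isoleucine, in *Gnaz*, whose product the toxin does not modify, and TAC, for tyrosine, in *Gnaq*, *Gna11* and *Gnas*. *Gnal* is described by its values only.
Gnai1, chr5:18267019-18267048, minus strand: aataacctaaaagacTGTggtctcttctaa
Gnai2, chr9:107615635-107615664, minus strand: aacaacctgaaggacTGTggcctcttctga
Gnai3, chr3:108109422-108109451, minus strand: aacaacttaaaggaaTGTgggctttattga
Gnao1, first end, chr8:93967026-93967055, plus strand: aacaatctccggggcTGCggcttgtactga
Gnao1, second end, chr8:93956223-93956252, plus strand: aaaaacctacggggcTGTggactctactga
Gnaz, chr10:75015183-75015212, plus strand: aacaatctcaagtacATCggcctttgctga
Gnaq, chr19:16383365-16383394, plus strand: ctgaacctgaaggagTACaatctggtctaa
Gna11, chr10:81530795-81530824, minus strand: ctgaacctgaaggagTACaacctggtgtga
Gnas, chr2:174346359-174346388, plus strand: atgcatctccgccaaTACgagctgctctaa

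The 2 Gq genes were identical at 27 of these 30 bases, *Gnai1* and *Gnai2* at 25, and both ends of *Gnao1* at 23, whereas *Gnai3* and *Gnas* matched at 12. Over the whole of the main transcripts the genes were separable from each other. Of the distinct runs of 31 bases in the transcripts that carried at least 5% of the TPM of their gene, between 0% (*Gnai3*) and 1.17% (*Gnal*) also stood, on the same strand, in transcripts of any other gene. *Gnas* shared 54.7% of these runs with an antisense gene, *Gm20721*, which held 4 to 15 counts per well in this stranded library. Also on the opposite strand, *Gnal* shared 12.2% with *Mppe1*, which held 140 to 209 counts per well, at most 3.77% of the level of *Gnal*. *Gnao1* shared 5.18% with *4930488L21Rik*, which held 4 to 25 counts.

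Per length, *Gnas* was the most abundant of the 9 genes and *Gnao1* the second. Levels between genes are given in TPM, salmon's estimate scaled for effective transcript length and depth, summed over the transcripts of a gene. *Gnas* stood at 1851 ± 48.7 TPM (SD over 8 wells), higher than all but 41 genes of the table, and *Gnao1* at 787 ± 37.1 TPM. *Gnai1* followed at 142 ± 2.53 TPM. *Gnai2* (100.2 ± 23.7 TPM), *Gna11* (99.0 ± 3.47 TPM) and *Gnaq* (93.4 ± 2.88 TPM) came next, and the ranges of *Gnai2* and *Gna11*, and of *Gna11* and *Gnaq*, overlapped, so their order lies within the spread between wells. *Gnaz* (67.1 ± 1.72 TPM) and *Gnal* (64.6 ± 1.51 TPM), whose product is the olfactory and striatal form of Gs, overlapped with each other. *Gnai3* was lowest at 32.4 ± 1.79 TPM. Each of the other neighbours in this order by TPM was separated in all 8 wells.

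**Figure D1:**
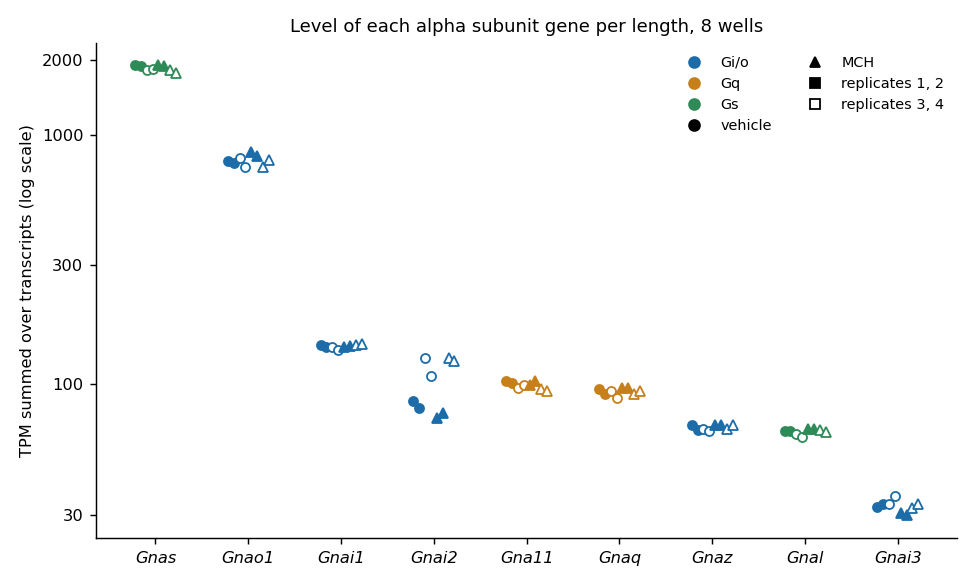
Level of each alpha subunit gene in TPM, summed over its transcripts, on a log scale, in the 4 vehicle (circles) and 4 MCH (triangles) wells; filled symbols are replicates 1 and 2, open symbols replicates 3 and 4, and colours are the classes. *Gnas* (1851 TPM on average) and *Gnao1* (787 TPM) lie above the other 7 genes, which average 32.4 to 142 TPM, and the symbols of *Gnai2* fall into a lower filled and an upper open set.

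*Gnas* alone made up 96.6% of the Gs class, *Gnao1* 69.7% of the Gi/o class, and the Gq class was divided between *Gna11* (51.5%) and *Gnaq* (48.5%). Of the TPM of all 9 genes, the Gs class took 59.6% ± 1.04 (SD, n = 4) in vehicle and 58.8% ± 0.812 in MCH wells, the Gi/o class 34.5% ± 1.1 and 35.3% ± 0.85, and the Gq class 5.96% ± 0.0898 and 5.93% ± 0.0907. The ranges of the treatments overlapped for each class, and no test was made of these sums. The shares depend on the length a gene is scaled to. When the reads of a gene were divided by the length of all its annotated exons (11186 bases for *Gnas*, against a mean effective length of 1398 bases in the tables), the Gs class took 31.4%, the Gi/o class 49.6% and the Gq class 18.9%. The order of Gs and Gi/o was thus reversed. The annotated length of *Gnas* also counts exons of transcripts with little expression. Those of its Nesp and XL starts, described below, held 0.0548% and 0.0181% of its TPM. *Gnas* and *Gnao1* remained the first and second gene on that scale too, at 136 and 89.2 CPM per kilobase of annotated exon. Lower ranks moved. In the same unit *Gnal* (17.3) came below *Gnai3* (17.6), *Gnai2* (26.9) below *Gnaz* (31.7), and *Gnaq* (47.7) above *Gna11* (44.6). The ranges over the wells overlapped in each of these pairs.

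**Figure D2:**
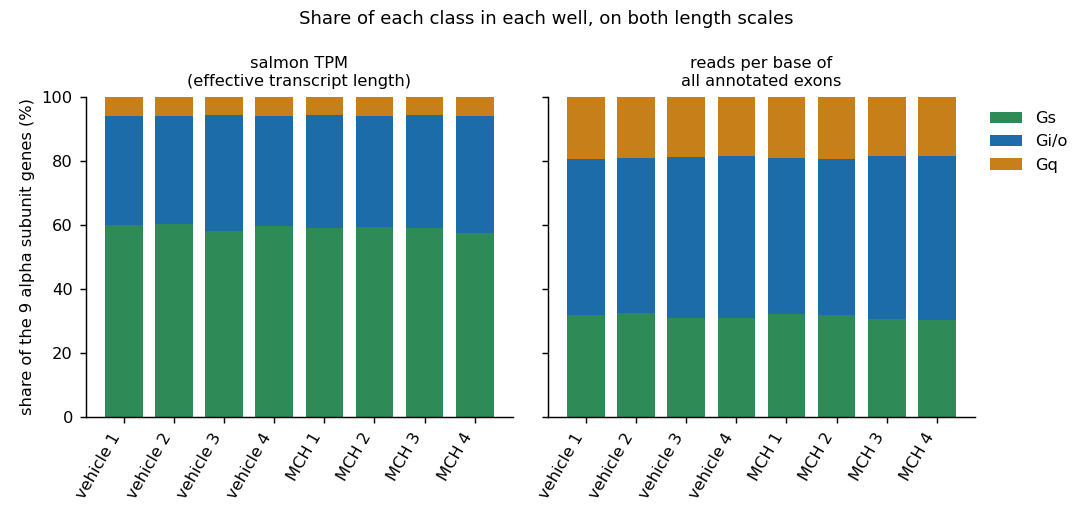
Share of each class in the 9 alpha subunit genes, in percent, in each of the 8 wells, from TPM (left) and from reads per base of all annotated exons (right). The Gs class takes 57.6% to 60.5% on the left and 30.2% to 32.4% on the right, and on neither scale do the vehicle and MCH wells separate.

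None of the 9 genes passed an adjusted *P* value of 0.05 between MCH and vehicle (quasi-likelihood test of edgeR, Benjamini–Hochberg adjustment over 14962 genes), where 35 genes, 0.234% of those tested, did. It was 0 of 9 also with DESeq2 (1.49% of the genes it gave an adjusted *P* value were called) and with the replicate number as a block (3.98%). With replicates 1 and 2 against 3 and 4 as a batch block (4.46%) it was again 0 of 9. The labels name no batch, and this block was read from the first principal component of the same counts. *P* values with the batch block therefore rest on a grouping taken from these data. At an unadjusted *P* value under 0.05 there was 1 of 9, *Gnai3*, against 8.50% of all genes. No member had MCH and vehicle wells that did not overlap, which 6.03% of all genes had. The median log2 fold change of the 9 genes, MCH minus vehicle, was 0.005, beside −0.003 for all genes tested. Of the 9 genes, 6 lay above 0 and 3 below, where 51.0% of all genes tested lay below 0. In what follows, levels by well are CPM, listed for replicates 1 to 4 and not scaled for length, and fold changes are on the log2 scale with their standard error (SE) and 95% interval.

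Among the Gi/o genes, *Gnai1* (chr5:18265135-18360355), an adenylyl cyclase inhibitor enriched in brain, read 247, 243, 238 and 235 CPM in the vehicle wells and 238, 239.6, 243 and 244 CPM in the MCH wells. The wells lay within a narrow band and overlapped fully. Its fold change was 0.001 (SE 0.031, interval −0.069 to 0.072).

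*Gnai2* (chr9:107614125-107635367), the widely expressed member of the same trio, read 83.8, 79.3, 123 and 118 CPM in vehicle and 82.5, 77.7, 125 and 123 CPM in MCH wells. Replicates 3 and 4 were high and replicates 1 and 2 low in both treatments, a ratio of 1.52, and the treatments overlapped within either pair. In the same wells the summed astrocyte markers given above were 4.07-fold and those of fibroblasts or vessels 2.38-fold as high, and the neuronal and inhibitory neuron sums 0.91-fold and 0.87-fold. The part of other cell types in the split of *Gnai2* was not tested, and in bulk RNA more cells of a type and more RNA per cell cannot be told apart. The fold change between treatments was 0.013 with the widest interval of the 9 genes (SE 0.221, interval −0.501 to 0.527) in the fit without a block. With the batch block it was 0.008 (SE 0.034, interval −0.063 to 0.079), and with the replicate block 0.008 (SE 0.033, interval −0.062 to 0.078).

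*Gnai3* (chr3:108107280-108146146), the third inhibitor of the trio, read 57.7, 59.8, 58.4 and 63.3 CPM in vehicle and 53.4, 52.6, 56.1 and 58.1 CPM in MCH wells. The MCH wells were the lower ones within replicates 1 and 2 and within replicates 3 and 4, and the highest MCH well lay above the lowest vehicle well. The fold change was −0.119 (SE 0.047, interval −0.224 to −0.014) with an adjusted *P* value of 0.518 in edgeR, and of 0.0932 with the batch block. MCH minus vehicle, mean log2 CPM differed by −0.148 within replicates 1 and 2 and by −0.09 within replicates 3 and 4.

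*Gnao1* (chr8:93809966-93969388), the main alpha subunit of neuronal membranes, read 1004.5, 997, 959 and 964 CPM in vehicle and 1019.7, 1025, 960.2 and 954.5 CPM in MCH wells. The wells of replicates 3 and 4 were the lower ones in both treatments. Its fold change was 0.013 (SE 0.038, interval −0.072 to 0.097). *Gnaz* (chr10:74967177-75016907), the subunit that pertussis toxin leaves untouched, read 117, 113, 111 and 116 CPM in vehicle and 115, 113, 114 and 117 CPM in MCH wells, an overlap of nearly the whole range. Its fold change was 0.005 (SE 0.033, interval −0.070 to 0.079).

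Of the Gq genes, *Gnaq* (chr19:16132831-16387463) read 308, 295, 294 and 279.8 CPM in vehicle and 303, 303, 286 and 294 CPM in MCH wells. No order by treatment was visible, and the fold change was 0.012 (SE 0.039, interval −0.076 to 0.099). *Gna11* (chr10:81528724-81545190), whose product shares its effector, phospholipase C beta, with that of *Gnaq*, read 192, 190.4, 179 and 184 CPM in vehicle and 181, 189, 175 and 172 CPM in MCH wells. The MCH wells were below the vehicle wells within each pair of replicates, by 0.05 and 0.063 on the log2 scale, but overlapped over all 8 wells. The fold change was −0.056 (SE 0.041, interval −0.147 to 0.035, adjusted *P* = 0.791 in edgeR).

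Of the Gs genes, *Gnas* (chr2:174284320-174346744) read 1574.5, 1589, 1488 and 1508.5 CPM in vehicle and 1556, 1544, 1478 and 1442 CPM in MCH wells. Here too the MCH wells were the lower ones within each pair of replicates and overlapped with vehicle over all 8. The fold change was −0.033 (SE 0.039, interval −0.121 to 0.054). *Gnal* (chr18:67088216-67226792) read 195, 197, 189 and 186 CPM in vehicle and 196, 197, 194 and 189 CPM in MCH wells, with a fold change of 0.018 (SE 0.034, interval −0.058 to 0.094).

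**Figure D3:**
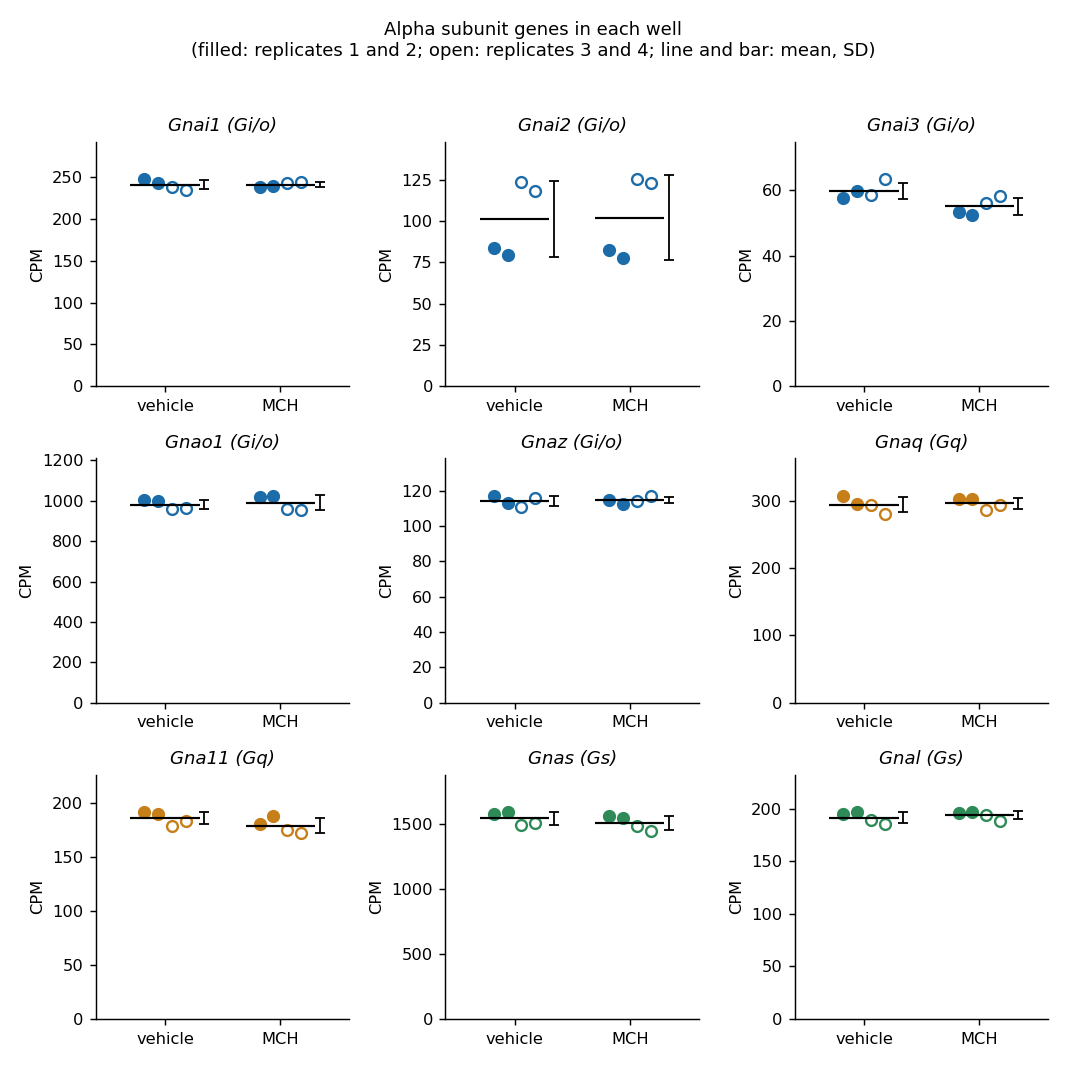
Level of each alpha subunit gene in CPM in the vehicle and MCH wells, with the mean (line) and SD (bar, n = 4); filled points are replicates 1 and 2, open points replicates 3 and 4. Vehicle and MCH wells overlap in every panel, and *Gnai2* separates into 77.7 to 83.8 CPM (filled) and 118 to 125 CPM (open) within both treatments.

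Within both pairs of replicate numbers, 3 of 9 genes (*Gnai3*, *Gna11* and *Gnas*, 1 from each class) had MCH wells below vehicle wells, which 9.12% of all genes tested had, and 0 of 9 had them above, against 7.25%. None of the 3 was called with either block, the adjusted *P* values with the batch block being 0.0932 or higher. Between replicates 1 and 2 and replicates 3 and 4, 5 of 9 genes did not overlap, beside 29.6% of all genes, and nothing is read from that count because the split was itself seen in these data. *Gnao1*, *Gnaq*, *Gnas* and *Gnal* were the higher ones in replicates 1 and 2, with ratios of 0.94 to 0.96 for replicates 3 and 4, and *Gnai2* the lower one.

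**Figure D4:**
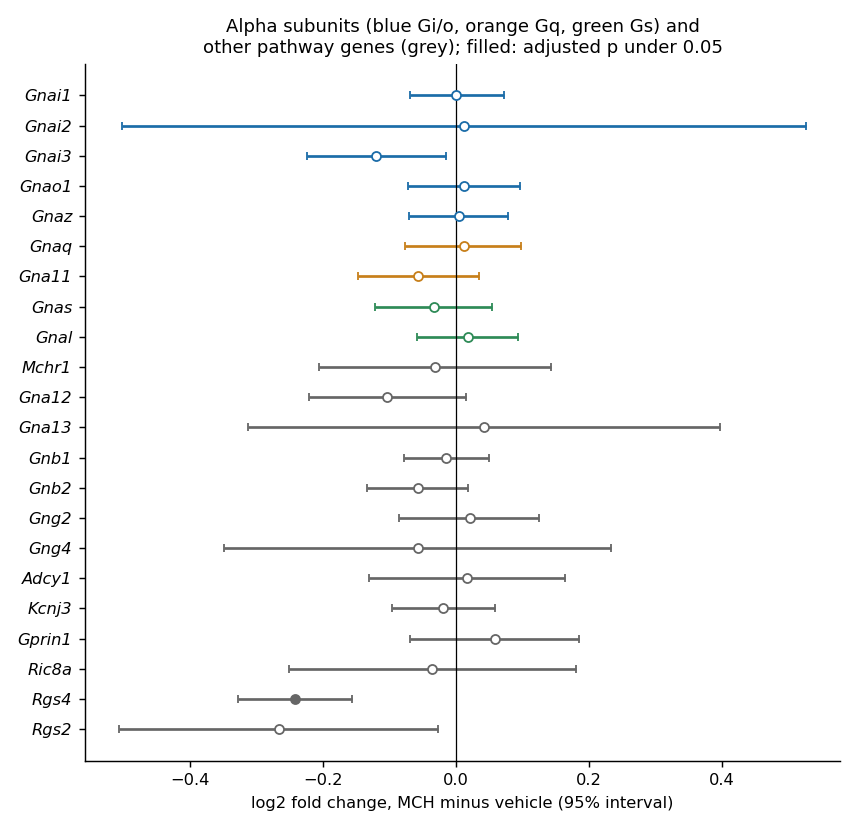
log2 fold change, MCH minus vehicle, with its 95% interval, for the 9 alpha subunit genes and 13 other genes of the pathway; filled points passed an adjusted *P* value of 0.05. The fold changes of the 9 alpha subunit genes lie between −0.119 (*Gnai3*) and 0.018 (*Gnal*), and *Rgs4* at −0.242 is the filled point.

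Transcripts of the 9 genes were compared in the same way, because several of these loci make more than 1 protein or use more than 1 start. The tables list 58 transcripts of the 9 genes, 14 of them with 0 reads in every well, and 32 passed the filter. In edgeR 0 of 32 were called, as were 0 of all 33527 transcripts tested (0%). Before adjustment 3 of 32 were under 0.05, beside 4.40% of all transcripts. DESeq2 called 1 of the 25 to which it gave an adjusted *P* value, beside 1.51% of all transcripts, and that was *Gnaz-202*.

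*Gnaz* has 2 coding transcripts, *Gnaz-201* and *Gnaz-202*, with the same coding sequence of 1068 bases and starts 23664 bases apart on chromosome 10 (74967177 and 74990841). *Gnaz-202* read 20.3, 16.8, 22.4 and 20.2 TPM in vehicle and 26.2, 28.3, 25.1 and 26.3 TPM in MCH wells. All MCH wells were above all vehicle wells, and it was the only 1 of the 32 member transcripts tested without overlap, beside 3.87% of all transcripts. Its log2 fold change was 0.385 (SE 0.084, interval 0.191 to 0.579), with an adjusted *P* value of 0.573 in edgeR and of 0.00208 in DESeq2. Mean log2 CPM differed by 0.526 within replicates 1 and 2 and 0.254 within replicates 3 and 4.

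*Gnaz-201*, from the upstream start, read 37.8, 38.5, 33.4 and 39.3 TPM in vehicle and 31.9, 28.5, 34.1 and 34.0 TPM in MCH wells, so that only the third vehicle well fell among the MCH wells. Its log2 fold change was −0.237 (SE 0.079, adjusted *P* = 1.0 in edgeR). Of the TPM of these 2 transcripts, *Gnaz-202* held 34.9% ± 4.04 in vehicle (30.4% to 40.2%, n = 4) and 45.2% ± 3.24 in MCH wells (42.4% to 49.8%). Reads that both transcripts share were divided between them by salmon's estimate, and the sum, the *Gnaz* gene, was level. The processed transcript *Gnaz-203*, listed with 1285 bases in the tables and with 645 in the annotation, made up 13.6% of the gene, with a log2 fold change of 0.023 (SE 0.27).

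*Gnas* is an imprinted locus with several starts, and 24 of its transcripts were listed. Those that begin at the Gs start made up 89.4% of its TPM, those that begin in the region of exon 1A 10.3%, and those of the Nesp and XL starts 0.0548% and 0.0181%. *Gnas-208*, the full coding transcript that includes exon 3, carried 77.7% (1438.5 ± 49.4 TPM), the processed transcript *Gnas-221* of the upstream region 7.15% and the short *Gnas-205* 5.25%. The antisense transcript of the locus, *Nespas*, had 2 to 7 counts per well and was not tested. Exon 3 is skipped in some Gs transcripts and so sets the long and short forms of the protein. Its 45 bases, which lie on the plus strand and are coding, are shown because the long and short forms differ in this exon. The coding sequence has 1185 bases in *Gnas-208*, 1140 in *Gnas-206* and 1143 in *Gnas-207*, so *Gnas-207* does not differ by these bases alone.
Gnas exon 3, chr2:174336747-174336791: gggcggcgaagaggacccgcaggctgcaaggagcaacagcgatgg

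*Gnas-206* and *Gnas-207*, the full coding transcripts without it, were singled out after their values were seen. Of the TPM of all 4 full coding transcripts (with *Gnas-202* and *Gnas-208*), they held 7.62%, 6.11%, 7.61% and 6.7% in the vehicle wells and 5.93%, 8.93%, 8.6% and 9.06% in the MCH wells. The lowest well was an MCH well, as were the highest 3. *Gnas-206* itself varied from 41.5 to 123 TPM between wells, and neither transcript was called (log2 fold change 0.396, SE 0.294, and −0.339, SE 0.456).

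*Gnao1* is spliced to 2 alternative coding ends, known as GoA and GoB, which share the first 737 of 1065 coding bases. The 2 main transcripts (279 ± 10.1 and 226 ± 11.2 TPM, SD over 8 wells) have the first end printed above, that of GoA, and together held 64.2% of the TPM of the gene. The transcript with the second end, that of GoB, was singled out after its values were seen. It read 7.64, 6.52, 20.6 and 18.05 TPM in vehicle and 7.09, 7.17, 22.2 and 21.7 TPM in MCH wells. Replicates 3 and 4 were thus high in both treatments, a 2.89-fold ratio in CPM, in the same wells in which *Gnai2* and the markers of astrocytes and of fibroblasts or vessels were high and the *Gnao1* gene as a whole and the neuronal marker sums were low. As a share of the TPM with either end it was 1.26% to 1.45% in replicates 1 and 2 and 3.54% to 4.29% in replicates 3 and 4, and between treatments its log2 fold change was 0.117 (SE 0.547). The part of other cell types in this was not tested. The length of this transcript in the deposited tables, 2333 bases, differs from the 5526 bases of the annotation used for the printed ends, so the quantified model may not be the one whose end is shown. The remaining *Gnao1* transcripts above 5% were an incomplete coding model (19.3%), a retained intron (7.33%) and a transcript annotated as a target of nonsense-mediated decay (5.26%).

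**Figure D5:**
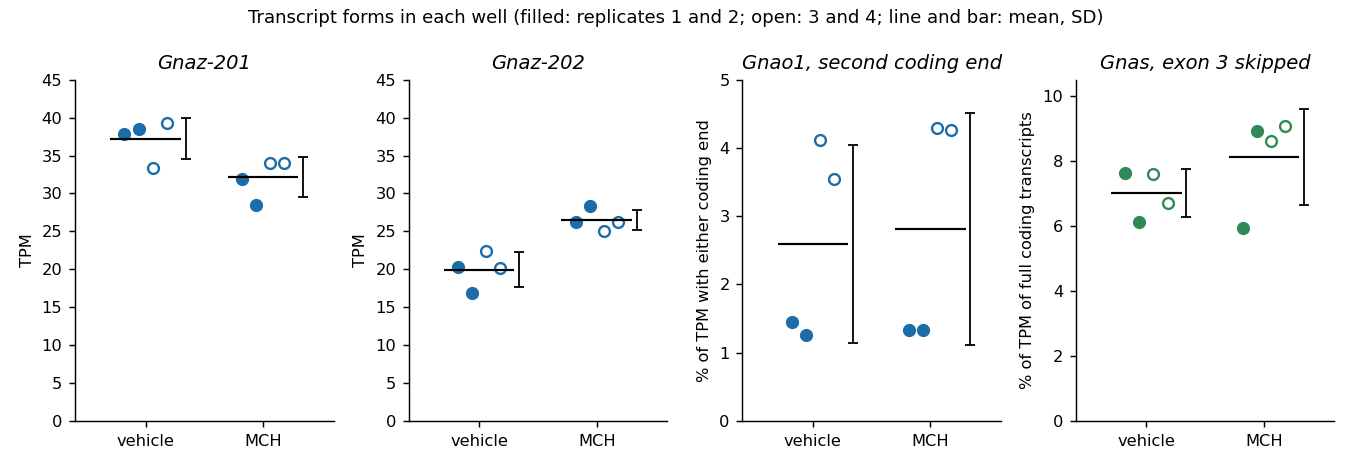
Transcript forms in the vehicle and MCH wells with the mean (line) and SD (bar, n = 4): *Gnaz-201* and *Gnaz-202* in TPM, the GoB transcript of *Gnao1* as a percentage of its TPM with either coding end, and *Gnas* without exon 3 as a percentage of its full coding transcripts. *Gnaz-202* is above 25 TPM in the MCH wells and below 22.5 TPM in the vehicle wells, and the GoB transcript separates by replicate number (filled 1 and 2, open 3 and 4) and not by treatment.

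In 4 of the other genes a single coding transcript held nearly all of the TPM, 98.8% in *Gna11*, 99.6% in *Gnaq* and 100% in *Gnai1* and *Gnai3*. The main coding transcript of *Gnai2* held 80.6%, and other coding transcripts held 12.1% and 6.56%. The main transcript showed the same split as its gene, at 71.2 to 78.7 CPM in replicates 1 and 2 and 111 to 113 CPM in replicates 3 and 4. *Gnal-202* held 75.1% and *Gnal-201*, which begins at an upstream start, 24.9%, with log2 fold changes of −0.005 (SE 0.075) and 0.076 (SE 0.195). Their lengths in the deposited tables (5223 and 5616 bases) also differ from those of the annotation (3470 and 5736 bases).

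Around the alpha subunits, the receptor *Mchr1* was detected in all wells at 248 to 300 counts and 8.60 ± 0.505 TPM (SD over 8 wells). It read 9.91 ± 0.82 CPM in vehicle and 9.7 ± 0.297 CPM in MCH wells (n = 4 each), with a log2 fold change of −0.031 (SE 0.078, interval −0.206 to 0.143). *Pmch*, the precursor of the hormone, had at most 1 count per well, which is under the floor of 3 counts.

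Of the partners, 4 of 5 beta subunits were tested, with fold changes from −0.173 to −0.014 (median −0.088, against −0.003 for all genes) and 0 called. *Gnb1* stood at 998 TPM and *Gnb2* at 682 TPM, and their log2 fold changes were −0.014 (SE 0.028) and −0.057 (SE 0.034). With the replicate block and with the batch block *Gnb4* was called (log2 fold change −0.173, adjusted *P* = 0.018 and 0.0205 in edgeR), where 3.98% and 4.46% of all genes were. It read 73.9 to 81.1 CPM in vehicle and 60.9 to 71.2 CPM in MCH wells, without overlap. Of 12 gamma subunits 9 were tested and 0 called, with a median of −0.018, and *Gng2* (724 TPM) and *Gng4* (239 TPM) were the most abundant. Of 7 other alpha subunits, *Gna12* (46.2 TPM) and *Gna13* (15.6 TPM) were tested and not called. The remaining 5, those of the retina and taste cells among them, had at most 6 counts per well.

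Among the direct effectors, 14 of 17 adenylyl cyclases, phospholipases C beta and G protein-gated potassium channels were tested and 0 were called. Their median log2 fold change was 0.028, beside −0.003 for all genes tested. Of the 14, 10 lay above 0 and 4 below, where 51.0% of all genes tested lay below 0. *Adcy1*, a calcium-stimulated cyclase, was the most abundant at 93.3 TPM, followed by the channel gene *Kcnj3* at 48.6 TPM. Of 10 chaperones and non-receptor regulators of alpha subunits, 9 were tested and 0 called (median −0.035). They include *Ric8a*, the chaperone of Gi and Gq subunits, at 118 TPM, and *Gprin1*, a neurite protein that binds Go, at 120.4 TPM.

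The RGS proteins, which speed the return of Gi/o and Gq subunits to the inactive state, were the list with a call. Of 21 genes 17 were tested, and 14 of these lay below 0 (median −0.071), beside 51.0% of all genes tested (median −0.003). In the test 1, *Rgs4*, fell, beside 0.234% of all genes called. *Rgs4* read 610.3, 619, 615 and 634 CPM in vehicle and 499, 512, 533 and 551 CPM in MCH wells, without overlap. Its log2 fold change was −0.242 (SE 0.038, interval −0.328 to −0.156, adjusted *P* = 0.0488 in edgeR), and leaving out any 1 of the 8 wells ended the call (adjusted *P* from 0.0837 to 0.204) with a fold change of −0.26 to −0.217. The adjusted *P* value was 3.41e-08 with DESeq2, 1.97e-05 with the replicate block and 5.82e-06 with the batch block, and over 0.05 in 4 other fits of all 8 wells. With the replicate block 3 of 17 RGS genes were called lower (*Rgs4*, *Rgs8* and *Rgs16*), beside 2.25% of all genes, and with the batch block 4 of 17, *Rgs2* being the fourth, beside 2.61%. *Rgs2* (107 TPM) was the second most abundant of the list, with a log2 fold change of −0.266 (SE 0.106) and an adjusted *P* value of 0.536 without a block.

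To describe how the levels ran over the wells, the 3 genes most like each main subunit were taken by Pearson correlation of log2 CPM over the 8 wells. For *Gnao1* these were *Cpne4* (0.991), *Wipf3* (0.988) and *Dpp6* (0.986), for *Gnaq* *Dzip3* (0.968), *Ndor1* (0.968) and *Gpatch2l* (0.967), and for *Gnas* *Slc32a1* (0.99), *Sesn2* (0.989) and *Scpep1* (0.988). Between members, *Gnao1* correlated with *Gnas* at 0.819, with *Gnai2* at −0.958 and with *Gnaz* at −0.089. The wells fall into 2 sets by replicate number, and these values largely restate on which side of that split a gene was higher.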

How the data were processed

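The authors quantified reads of poly-A selected, stranded libraries against GRCm38 with the nf-core/rnaseq pipeline and its salmon step. The deposited gene table holds estimated counts (9.13% of values not whole, no scaling), and the deposited transcript tables hold estimated counts and TPM per well. The annotation release is not given in the sources used here. GENCODE vM21 named 98.8% of genes and 98.7% of transcripts and gave all coordinates and sequences.

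Counts were rounded and tested in R 4.3.3 with edgeR 4.0.16 (TMM factors, filterByExpr with a count minimum of 10 and a total minimum of 15, robust quasi-likelihood F test, no block, Benjamini–Hochberg over all features, threshold 0.05). CPM use the TMM factors. SE is the fold change over the square root of F. Alternatives were DESeq2 1.42.0, limma voom (limma 3.58.1), other factors, no filter, a length offset, both blocks and leaving out each well. The procedure was also run on simulated counts with planted changes. These were larger than the fold changes of the members, and the split of replicates was not simulated. The run therefore does not show whether changes of the members' size would be found.

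Both treatments carry replicate numbers 1 to 4 in the labels. Deviations of same-numbered wells correlated at 0.364 to 0.481, every pair over 0.1, which meets the rule set for pairing. However, differently numbered wells on the same side of the split of replicates 1 and 2 from 3 and 4 correlated at 0.398 to 0.477, and wells across it at −0.493 to −0.349, so these values show the split and not a pairing by number itself.

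The members, lists and tests were chosen with earlier results of these data known. Named are the 9 members, *Mchr1*, *Pmch*, pathway genes called without a block and the 2 most abundant of each list, transcripts with at least 5% of the TPM of a gene or called, and the 3 genes most like *Gnao1*, *Gnaq* and *Gnas*. Others are said to be chosen after their values were seen, as were *Gnb4*, *Rgs8* and *Rgs16*.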

Additional observations from a re-analysis of the deposited data

Results flagged for a closer look

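In 84 groups of 4 wells (42 named genes and transcripts in 2 treatments), 2 held a well whose gap to the nearest other well exceeded the critical share of the range in a Dixon test. Chance flags about 1 in 20 such groups. For *Gnaz-203* it was replicate 4 of vehicle, at 3.23 CPM where the others lay between 6.13 and 6.49 CPM. For *Mchr1* it was replicate 2 of MCH, at 10.1 CPM where the others lay between 9.48 and 9.58 CPM.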

How the results depend on the processing

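No member passed the threshold in any of 144 refits (72 without a well, 72 other alternatives), and the sign of the fold change was kept in 136. It turned for *Gnai2* with the length offset (−0.019), without vehicle replicate 1 (−0.062) or 2 (−0.084) and without MCH replicate 3 (−0.094) or 4 (−0.084), its range without a well being −0.094 to 0.127. It also turned for *Gnai1* (−0.007 to 0.02) and *Gnaq* (−0.007 to 0.04) without vehicle replicate 4, for *Gnaz* (−0.005 to 0.024) without vehicle replicate 3 and for *Mchr1* (−0.071 to 0.023) without vehicle replicate 1. The turned values are smaller in size than the standard errors of the edgeR fit of all wells without a block, 0.221 for *Gnai2*. With the batch and the replicate block the standard error of *Gnai2* was 0.034 and 0.033, below its turned values without a well. The cause was not tested.

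Over all genes, the 35 calls (4 higher) became 171 with DESeq2 (75 higher), 596 with the replicate block (259 higher), 668 with the batch block (277 higher), 4 with the length offset and 4 to 29 without a well, fewest without vehicle replicate 4. Pathway genes called went from 1 to 4 with the replicate block and 5 with the batch block. They went to 0 with upper-quartile factors, no filter, limma voom, the length offset and without any 1 well. The call that was lost is *Rgs4* (adjusted *P* of 0.07, 0.0546, 0.0551 and 0.145 in that order). Of all transcripts, 281 were called with DESeq2, 6 with the batch block and 0 to 1 without a well, and of member transcripts 1 with DESeq2 (*Gnaz-202*). The other fits called 0 member transcripts. The replicate block changed no other call reported here. Class shares moved only with the annotated exonic length, to 49.6% for Gi/o, 18.9% for Gq and 31.4% for Gs. Without a well they were 34.6% to 35.1%, 5.93% to 5.96% and 59.0% to 59.4%.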
